A study of Mus musculus with 24 samples.

Results

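Smooth muscle contractile genes of activated fibroblasts, and the gelsolin gene, were examined in pancreatic stellate cells (PSC) cultured with pancreatic cancer cells or alone. They were taken as a list of names with no threshold on their values, and are 10 of the 53801 genes listed, namely Acta2, Tagln, Cnn1, Myl9, Tpm1, Tpm2, Actg2, Myh11, Des and Gsn. The list was written with earlier results of these data known, so counts of its genes beside shares over all genes are a description. All 10 had an FPKM above 1 in every library, so each was tested in every comparison. FPKM scales the fragments of a gene by gene length and by the depth of its library. The PSC were WT cells from the pancreata of C57BL/6J mice aged 7 to 10 weeks, with pancreata of both sexes pooled for each isolation, and were used at early passage. The cancer cells, KPC cells, came from a mouse model of pancreatic cancer with p48-Cre, which acts in the pancreas, and this single line was used in all co-cultures. In standard co-culture PSC grew on a membrane with pores of 1 µm over KPC cells on the well bottom, and inverse co-culture had the KPC cells grow on the underside of that same membrane. Control PSC of each model were seeded in the same way without KPC cells. RNA of PSC was sequenced 24 h and 72 h later, which gave 8 groups of 3 libraries. The RNA input was 450 ng in the standard and 120 ng in the inverse model, PSC and KPC cells of the inverse model were together for 24 h before the time count began, and PSC of the standard model spent the day before it in another medium, so these differences cannot be told apart from the model. The medium was not renewed between 24 h and 72 h. Depth ranged from 15932737 to 24798761 fragments per library with a median of 18860269. A gene was called a DEG where the adjusted p of limma was under 0.05, with changes expressed as differences of log2(FPKM + 0.5).

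When stellate cells are activated, they take on a contractile phenotype in which α-smooth muscle actin, encoded by Acta2, is built into stress fibres with tropomyosins, calponin and smooth muscle myosin. Transcription of many of these genes depends on serum response factor (SRF), which binds the CArG box, and on its actin-regulated co-activators of the MRTF family. In pancreatic tumours, fibroblasts with high levels of these genes are known as myofibroblastic fibroblasts and are set apart from inflammatory fibroblasts.

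In these cultures Acta2 was among the most abundant transcripts. Its FPKM ranged from 476 to 5963 with a median of 1223 over the 24 libraries, and its rank among all listed genes lay between 6 and 165. Other thin filament genes were of the same order, with a median FPKM of 911 for the tropomyosin Tpm1 and of 467 for Tpm2, and the regulatory myosin light chain Myl9 had a median of 845. The enteric smooth muscle actin Actg2 and calponin 1, Cnn1, which binds actin and myosin, had medians of 368 and 247. Gsn, which encodes the actin severing protein gelsolin, had a median of 374. The paper counts gelsolin among the markers of inflammatory fibroblasts. The smooth muscle myosin heavy chain Myh11 (median 73.9), the muscle intermediate filament desmin, Des (52.9), and transgelin, Tagln (19.2), were the least abundant. Tagln is usually abundant in such cells, and its value here needs care. On GRCm38, Tagln lies at chr9:45929619-45936058 on the minus strand, and 67.9% of its exon bases lie in exons of other genes, 62.4% in those of Gm48529 on the opposite strand. Counting by default disregards the strand and leaves out fragments in exons of several genes. Tagln had between 168 and 1236 fragments per library (median 374), against a median of 41554 for Acta2. The part of the overlap in this low value was not tested, and the overlap was read from GENCODE M21, while the release behind the deposited values is not given in the sources used here. Of the other 9 genes, only Des overlapped another gene, with 5.86% of its exon bases. Read on the transcript strand, no stretch of 75 bases in a transcript of the 10 genes was shared with a transcript of another gene. The opposite strand, on which Gm48529 overlaps Tagln, was not searched.

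The 2 actins and the myosin of smooth muscle lie on different chromosomes, Acta2 at chr19:34241090-34255590 (minus strand), Actg2 at chr6:83512905-83536265 (minus strand) and Myh11 at chr16:14194535-14291372 (minus strand). Promoter sequences of RefSeq on GRCm38.p6 were at hand for 7 of the 10 genes, and none was used for Tagln, Actg2 and Myh11. The bases before the RefSeq start of Acta2 are shown because this gene leads the group. Starts here are those of RefSeq and differ from the ends of the GENCODE spans. The Acta2 start and most of its window lie within the span given above, as does the Tpm1 element below within the span of Tpm1. In the 250 bases at chr19:34255374-34255623 (minus strand), the capitals mark 2 CArG-like boxes, which have 1 G or C in the A/T core and begin 84 and 34 bases before the start, and 1 MCAT element (CATTCC, here read on the other strand as GGAATG), the site of TEAD factors, at 146 bases:
Acta2: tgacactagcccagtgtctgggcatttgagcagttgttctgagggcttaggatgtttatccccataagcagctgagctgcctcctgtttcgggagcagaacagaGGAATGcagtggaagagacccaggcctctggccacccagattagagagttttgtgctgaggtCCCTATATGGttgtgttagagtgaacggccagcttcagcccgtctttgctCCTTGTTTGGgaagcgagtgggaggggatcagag
An exact CArG box, searched within the 250 bases before each start, was found for 1 of the 7 genes, Myl9, and is shown with a CArG-like box of the same promoter (both plus strand, chr2:156775293-156775322 and chr2:156775355-156775384). Gsn had 1 CArG-like box before 1 of its 3 starts (chr2:35256187-35256216, plus strand), and Tpm1 had an MCAT element (chr9:67049254-67049279, minus strand):
Myl9, exact CArG box: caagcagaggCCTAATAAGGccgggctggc
Myl9, CArG-like box: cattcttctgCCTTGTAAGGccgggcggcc
Gsn, CArG-like box: gactcagtttCCTTCTATGGaccgcagaga
Tpm1, MCAT element: gctgtcctaaGGAATGcggtcgcccc
None of these motifs was found in the windows of Cnn1, Tpm2 and Des. The CArG box reads the same on both strands, CATTCC was searched on both, and the matches listed do not overlap each other. Of all 32851 promoters in the table, 1.47% held an exact CArG box, 7.24% a CArG-like box and 12.6% the MCAT letters. These are matches of letters and not measured sites.

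As a check of the cell type, the fibroblast genes Col1a1 (FPKM 4918 to 10708), Vim (706 to 1994) and Pdgfrb (126 to 194) were high in all libraries, whereas the stellate cell markers Lrat and Gfap never exceeded an FPKM of 0.0306 and 0.237. These are RNA levels. By staining, the paper found GFAP, α-smooth muscle actin and vimentin protein in its PSC, and lipid droplets with Oil red O. The 12 pericyte and smooth muscle markers, which include Cnn1, Myh11 and Des, summed to between 250 and 2133, and of the pericyte genes among them Mcam (12.4 to 274) and Notch3 (11.6 to 43.3) were above an FPKM of 1 in all 24 libraries, Rgs5 in 19 and Cspg4 in 3, while Kcnj8 and Abcc9 were under 1 in every library. Of 7 endothelial markers, 5, Pecam1 among them, were under 1 in every library, whereas Egfl7 (1.45 to 6.35) was above 1 in 24 and Tek (0.652 to 2.15) in 21. Of the epithelial genes, Epcam, Cdh1, Cldn4 and Cldn7 were under 1 in every library. Sox9 (2.38 to 8.75) was above 1 in 24 libraries, Muc1 (0.410 to 6.37) in 20 and Krt19 (up to 11.6) in 7. Krt8 and Krt18 were above 1 in 3 libraries each and Krt7 in 2. The 10 epithelial and KPC markers summed to between 5.09 and 14.2 in 23 libraries and to 51.9 in replicate 2 of inverse co-culture at 24 h. The 9 macrophage markers summed to between 365 and 1195 in the 4 libraries of replicate 2 of the standard model and to between 24.2 and 229 in the other 20 libraries. The RNA is from bulk cultures, in which fewer cells of a type and less RNA per cell cannot be told apart.

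The control libraries of the standard model differed widely from each other. In control PSC at 24 h, the Acta2 FPKM was 5963 in replicate 1, 824 in replicate 2 and 1509 in replicate 3, and at 72 h it was 4537, 476 and 895. Actg2 went furthest, with an FPKM of 2356 in replicate 1 and 82.6 in replicate 2 of control PSC at 72 h, a 28.5-fold range within 1 group. In each of the groups of control PSC of the standard model, replicate 1 was the highest library for 9 of the 10 genes, all but Gsn. Adipocyte markers went the other way, since their sum of FPKM over 10 genes was 363 in replicate 1 of control PSC at 24 h against 1258 and 1656, and 271 against 2226 and 1895 at 72 h. In the inverse model, the 3 libraries of control PSC at 24 h lay close together, with a median ratio of the highest to the lowest library of 1.22 over the 10 genes, against 4.40 in the standard model. In co-cultured PSC at 72 h the order was the other way, with a median ratio of 1.51 in the standard and 1.87 in the inverse model. Over all groups of each model, the highest ratio of Des was 2.66 in the inverse and 1.75 in the standard model.

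**Figure D1:**
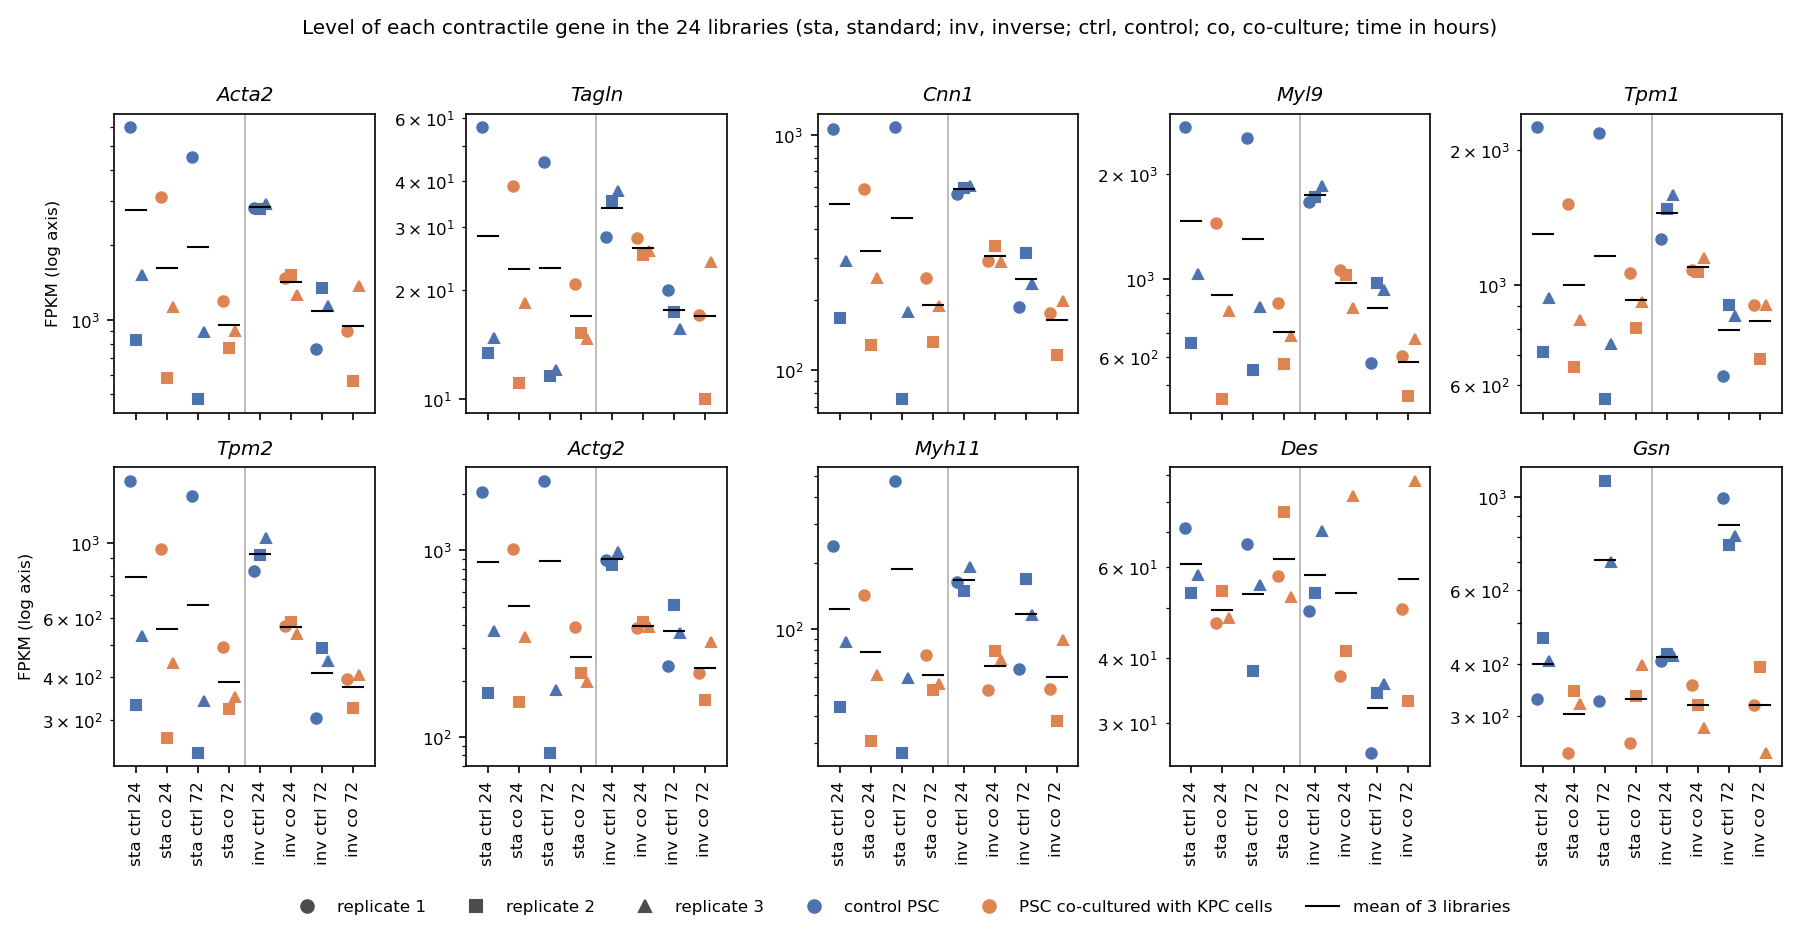
FPKM of each of the 10 genes on a log axis (vertical) in the 8 groups (horizontal, standard model left and inverse model right of the grey line, time in hours), with 1 point per library, its shape giving the replicate number and its colour control or co-culture, and a line at the mean of 3 libraries. Replicate 1 of the standard controls is the highest for 9 genes, with 5963 against 824 and 1509 for Acta2 at 24 h, whereas the 3 inverse controls at 24 h lie between 2790.4 and 2922.

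In inverse co-culture, the contractile genes were lower at 24 h. Of the 10 genes, 6 were down-regulated DEG, namely Acta2, Cnn1, Myl9, Tpm2, Actg2 and Myh11, where 1.39% of the 12827 genes tested were down-regulated. All 10 estimates were below 0, with a median log2 fold change of -0.78 against -0.06 over all genes tested. In control PSC the Acta2 FPKM was 2835, 2790.4 and 2922, and in co-cultured PSC it was 1474, 1519 and 1253. The groups did not overlap, and Acta2 fell by 1.01 on the log2 scale (SE 0.11, adjusted p = 0.00514, limma), to 49.5% of the control level. Actg2 had an FPKM of 884, 836 and 986 in control PSC and of 383, 416 and 390.3 in co-cultured PSC. It too was lower in all 3 co-cultured libraries, and it fell by 1.18 (SE 0.10, adjusted p = 0.00337). Myh11, the motor of smooth muscle contraction, changed most, from 163, 149 and 192 to 52.7, 79.5 and 71.8, a log2 fold change of -1.31 (SE 0.16, adjusted p = 0.00786). Cnn1 went from 563, 597 and 609 to 291, 338 and 290.0, and its log2 fold change was -0.95 (SE 0.10, adjusted p = 0.00514). The fall of Myl9, from 1657, 1720.2 and 1849 to 1064, 1027 and 829, was 0.85 on the log2 scale (SE 0.12, adjusted p = 0.0121). Tpm2 went from 826, 922 and 1035 to 567, 584 and 539, with a log2 fold change of -0.71 (SE 0.11, adjusted p = 0.0159). No co-cultured library of these 6 genes reached the lowest of its controls.

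The 4 other genes did not pass the test at 24 h. Tpm1, a tropomyosin that non-muscle cells also use, had an FPKM of 1267, 1477 and 1593 in control PSC and of 1082, 1068 and 1149.9 in co-cultured PSC (log2 fold change -0.39, SE 0.11, adjusted p = 0.122). Gsn had 406, 421 and 416 against 356, 318 and 280.2 (-0.39, SE 0.11, adjusted p = 0.114), and Tagln 28.1, 35.2 and 37.7 against 27.8, 25.1 and 25.6 (-0.35, SE 0.13, adjusted p = 0.26). These 3 genes were also lower in every co-cultured library, so that 9 of the 10 genes had groups that did not overlap, where 13.8% of all genes tested were lower without overlap. Only Des overlapped, with 49.2, 53.4 and 70.4 in control PSC and 36.8, 41.2 and 82.3 in co-cultured PSC (-0.19, SE 0.28, adjusted p = 0.824). With any 1 of the 6 libraries left out, Acta2, Cnn1, Actg2 and Myh11 remained DEG each time, whereas Myl9 and Tpm2 were DEG in 3 of the 6 fits each. Without replicate 2 of the co-culture, the library with the epithelial markers, 5 of the 10 genes were DEG, all of the 6 but Tpm2. In a single model over all 24 libraries, whose spread includes that of the standard model, 0 of the 10 genes were DEG, with 0 at an unadjusted p under 0.05, where 0.0415% of all genes were down-regulated. Without the filter on low values 2 of the 10, Cnn1 and Actg2, passed, as 0.0997% of all genes did.

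**Figure D2:**
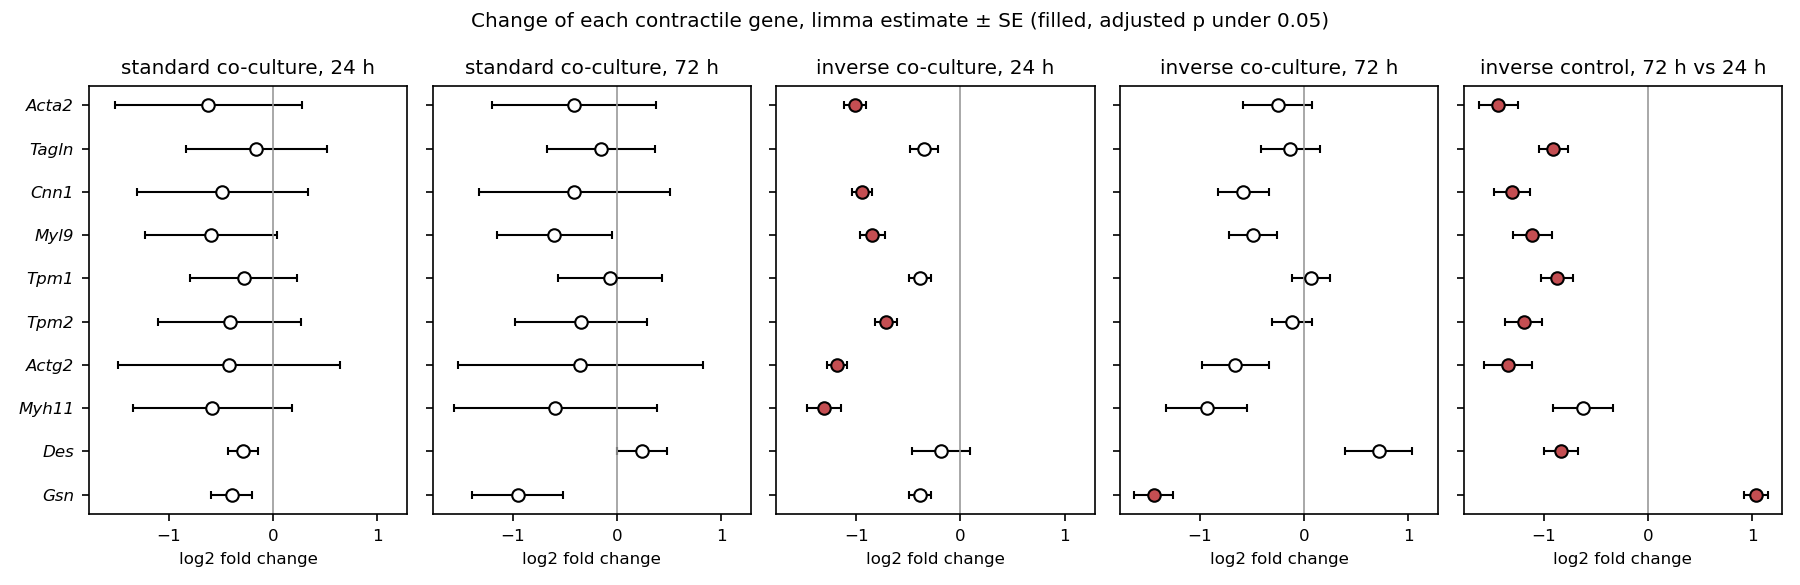
Log2 fold change (horizontal, on the log2(FPKM + 0.5) scale) of each of the 10 genes (vertical) with its SE in the 4 co-culture comparisons and in inverse controls over time, 3 libraries against 3, filled where the adjusted p of limma was under 0.05. At 24 h of inverse co-culture 6 genes are filled and all lie below 0, at 72 h only Gsn is filled, and in inverse controls 8 genes fell and Gsn rose.

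At 72 h of inverse co-culture, Gsn was the only DEG of the 10, where 9.57% of the 13066 genes tested were down-regulated and 3.27% up-regulated. The Gsn FPKM was 995, 767 and 805 in control PSC and 318, 392 and 245 in co-cultured PSC. All co-cultured libraries were far below the controls, and Gsn fell by 1.44 on the log2 scale (SE 0.19, adjusted p = 0.00652), to 36.8% of the control level. It remained a DEG with each of the 6 libraries left out, between -1.60 and -1.27. Acta2 was at 763, 1347 and 1137 in control PSC and at 899.5, 563 and 1362 in co-cultured PSC. The groups overlapped, and its log2 fold change was -0.25 (SE 0.33, adjusted p = 0.636). The largest estimates below 0 after Gsn were those of Myh11 (-0.93, SE 0.39, adjusted p = 0.145), with 65.4, 168 and 116 against 53.2, 38.0 and 89.3, and of Actg2 (-0.66, SE 0.32, adjusted p = 0.202), with 239, 512 and 363 against 220.4, 158 and 321. Cnn1 (-0.58, SE 0.24) and Myl9 (-0.49, SE 0.23) had an adjusted p of 0.147 and 0.184, and Tagln (-0.13), Tpm2 (-0.12) and Tpm1 (0.07) lay near 0. Des was the one gene with a higher estimate of any size, at 26.2, 34.2 and 35.7 in control PSC and 49.7, 33.0 and 87.8 in co-cultured PSC (log2 fold change 0.71, SE 0.32, adjusted p = 0.168). It was a DEG, with a log2 fold change of 1.05, once replicate 2 of the co-culture was left out. The median over the 10 genes was -0.37, against -0.16 over all genes tested. Scaling the libraries by the median of gene ratios moved that median of all genes to 0.00 and left 6 of the 10 genes below 0 in place of 8, with Tagln and Tpm2 now above 0.

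In control PSC of the inverse model, the contractile genes fell between 24 h and 72 h without any KPC cells. Of the 10 genes, 8 were down-regulated DEG, where 9.05% of the 13092 genes tested were, and Gsn was up-regulated, as were 10.2% of all genes. Acta2 went from 2835, 2790.4 and 2922 at 24 h to 763, 1347 and 1137 at 72 h, without overlap, and fell by 1.43 on the log2 scale (SE 0.19, adjusted p = 0.00263), to 37.0% of its level at 24 h. Actg2 went from 884, 836 and 986 to 239, 512 and 363 (log2 fold change -1.34, SE 0.23, adjusted p = 0.00631), and Cnn1 from 563, 597 and 609 to 186, 314 and 233 (-1.30, SE 0.17, adjusted p = 0.00252). The log2 fold changes of Tpm2, Myl9, Tagln, Tpm1 and Des lay between -1.19 and -0.83, with adjusted p between 0.00355 and 0.00969. These 8 genes were lower in every library at 72 h, where 16.9% of all genes were lower without overlap. Myh11 had 163, 149 and 192 at 24 h and 65.4, 168 and 116 at 72 h, so that replicate 2 lay within the earlier range, and did not pass the test (-0.62, SE 0.29, adjusted p = 0.161). Gsn rose from 406, 421 and 416 to 995, 767 and 805 (log2 fold change 1.04, SE 0.11, adjusted p = 0.00177). All 9 calls were kept with each library left out, but a single model over all 24 libraries called 0 of the 10 genes, with 4 at an unadjusted p under 0.05, where 1.15% of all genes were down-regulated and 0.408% up-regulated. Both co-culture comparisons of the inverse model are thus made against controls at different levels. At 24 h co-cultured PSC had an Acta2 FPKM between 1253 and 1519, a range that overlaps that of control PSC at 72 h, 763 to 1347.

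In the inverse model Gsn was highest in control PSC at 72 h, and so was the summed level of adipocyte markers. The sum of the 10 adipocyte markers, among them Adipoq, Plin1 and Fabp4, was 713, 851 and 1161 in control PSC at 24 h, 943, 691 and 602 in co-cultured PSC at 24 h, 2856, 1867 and 2797 in control PSC at 72 h, and 771, 1017 and 444 in co-cultured PSC at 72 h. For both, the lowest control library at 72 h lay above every other inverse library. Of the 10 markers, 10 were lower in all 3 co-cultured libraries than in all controls at 72 h, where 28.8% of all genes tested were, and 9 were higher in all controls at 72 h than at 24 h, where 22.8% of all genes were. At 24 h, 3 of the 10 markers were lower in all co-cultured libraries, where 13.8% of all genes tested were, and 7 overlapped. Gsn did not overlap at 24 h. Lyz2 and the other macrophage markers summed to 122 to 229 in control PSC at 72 h and to 50.3 to 79.7 in co-cultured PSC. The part of these markers in the result for Gsn was not tested. In the standard model, Gsn was at 325, 1091 and 699 in control PSC at 72 h, and the library with 1091, replicate 2, had the highest sums of adipocyte and macrophage markers of these 3 libraries, 2226 and 1195.

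**Figure D3:**
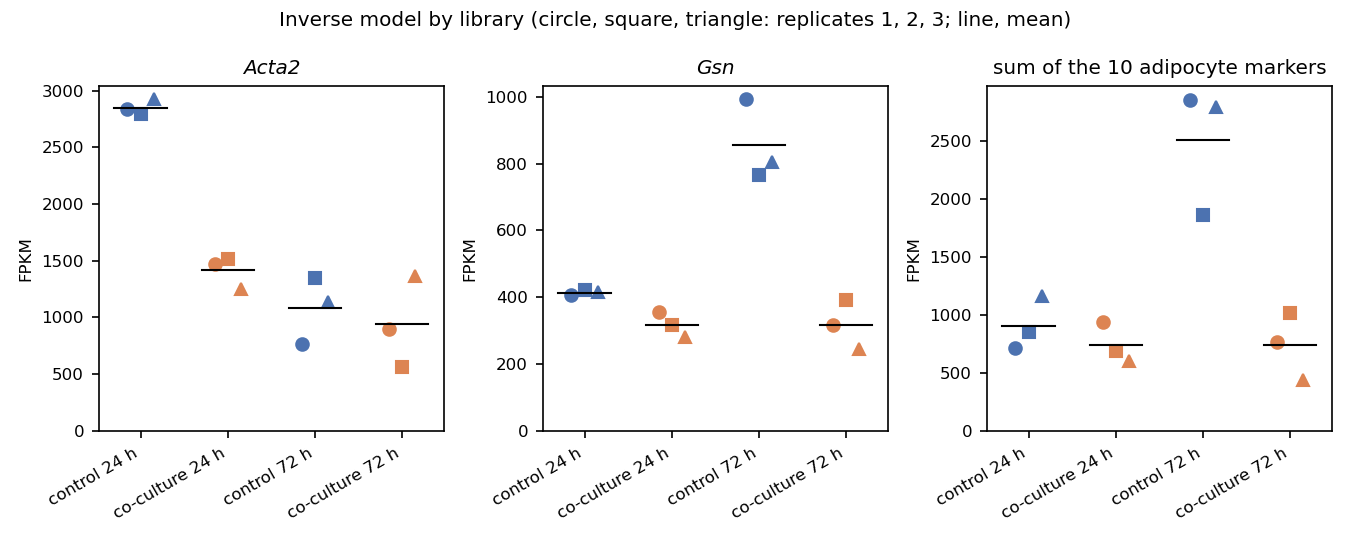
FPKM (vertical, from 0) of Acta2, of Gsn and of the summed 10 adipocyte markers in the 12 libraries of the inverse model (horizontal, 4 groups, control in blue and co-culture in orange, the shape giving the replicate number, a line at the mean). Acta2 is highest in controls at 24 h, between 2790.4 and 2922, whereas Gsn and the adipocyte markers are highest in controls at 72 h, at 767 to 995 and 1867 to 2856.

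In standard co-culture, none of the 10 genes was a DEG in the unpaired test. At 24 h, 0 of 12859 genes tested passed (0% called), 0 of the 10 had an unadjusted p under 0.05, and voom on the recovered fragments also called 0. All 10 estimates were nevertheless below 0, with a median log2 fold change of -0.42 against -0.01 over all genes. Acta2 was at 5963, 824 and 1509 in control PSC and at 3129, 581 and 1122 in co-cultured PSC, so that the groups overlapped widely (log2 fold change -0.62, SE 0.90, adjusted p = 1). Within each replicate number, however, Acta2 was lower in co-culture, with log2 differences of -0.93, -0.50 and -0.43 in replicates 1, 2 and 3. The same held for 8 of the 10 genes in all 3 numbers, with Tagln and Des as the exceptions. The share of all genes lower in all 3 numbers was not computed, so this count describes the 10 genes alone. As libraries with the same number deviated together from their group means in the standard model, a fit with the replicate number as a block is given beside. It called 1 gene, Myh11, at 238, 44.1 and 87.2 in control PSC and 143, 30.8 and 61.3 in co-cultured PSC (log2 fold change -0.58, SE 0.08, adjusted p = 0.0304), where 0.56% of all genes were down-regulated in that fit. In the blocked fit Gsn (-0.40, SE 0.07) had an adjusted p of 0.0566, Acta2 (-0.62, SE 0.11) of 0.0646 and Myl9 (-0.60, SE 0.11) of 0.072. In that fit 8 of the 10 genes had an unadjusted p under 0.05. The share of all genes under that unadjusted limit is not given here, so the 8 cannot be set against it. The range of the remaining estimates was -0.49 for Cnn1 to -0.16 for Tagln.

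At 72 h of standard co-culture, 0 of the 10 genes and 0 of 12863 genes tested were DEG (0% called), 0 of the 10 had an unadjusted p under 0.05, and voom called 0. The blocked fit called 0 of the 10 as well, with 1 at an unadjusted p under 0.05, where 0.00777% of all genes were called. Acta2 was at 4537, 476 and 895 in control PSC and at 1194, 771 and 899 in co-cultured PSC. The libraries moved in different ways, with log2 differences of -1.93 in replicate 1, 0.70 in replicate 2 and 0.01 in replicate 3, and the estimate was -0.41 (SE 0.79, adjusted p = 0.95). Co-culture was below control for 10 of the 10 genes in replicate 1, for 1 in replicate 2 and for 4 in replicate 3. Without replicate 1, chosen for omission after the values were seen, 2 of the 10 estimates were below 0 and their median was 0.39, against 9 and -0.38 with it. The single gene that was lower in all 3 numbers was Gsn, at 325, 1091 and 699 in control PSC and 258, 334 and 396 in co-cultured PSC (log2 fold change -0.95, SE 0.44, adjusted p = 0.783). The other estimates, with the exception of Des (0.24, SE 0.24), lay between -0.60 for Myl9 and -0.07 for Tpm1. In control PSC of the standard model, 72 h against 24 h gave 0 DEG among the 10 genes and among all 12963 tested (0% called), with 0 of the 10 at an unadjusted p under 0.05 and 0 by voom. Acta2 had a log2 fold change of -0.65 (SE 1.04) and Gsn of 0.67 (SE 0.44), both with an adjusted p of 1. This test does not use the replicate numbers. Within each number Acta2 was lower at 72 h, with log2 differences of -0.39, -0.79 and -0.75 in replicates 1, 2 and 3. Of the 10 genes, 6 were lower in all 3 numbers, and here too the share of all genes was not computed. Gsn had differences of -0.02, 1.25 and 0.79.

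**Figure D4:**
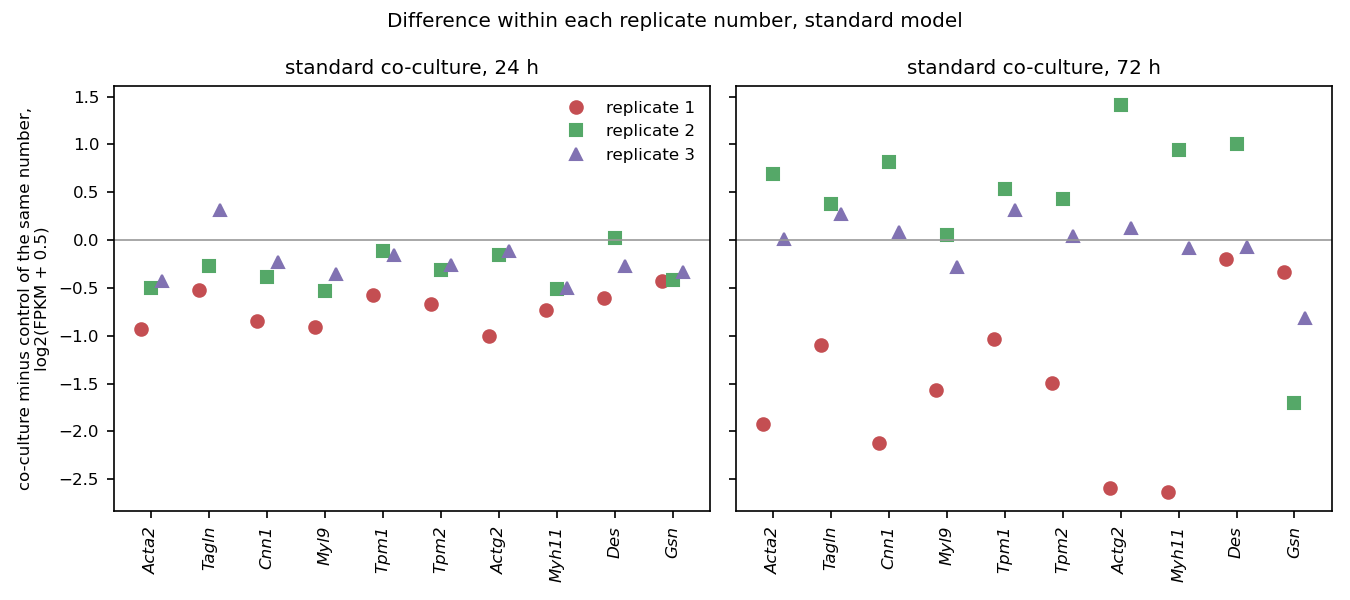
Difference between co-culture and control of the same replicate number on the log2(FPKM + 0.5) scale (vertical) for each of the 10 genes (horizontal) at 24 h (left) and 72 h (right) of the standard model, with 1 point for each of 3 numbers. At 24 h nearly all points lie below 0 (-0.93, -0.50 and -0.43 for Acta2), and at 72 h replicate 1 lies below 0 for all 10 genes whereas replicate 2 lies above 0 for all but Gsn.

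Whether co-culture acted differently in the models was tested as a difference of the 2 effects over all 24 libraries. At 24 h and at 72 h, 0 of the 10 genes and 0 of 14452 genes tested differed (0% called), and 0 of the 10 had an unadjusted p under 0.05 or were called by voom. For Acta2 the effect in the inverse model less that in the standard model was -0.39 on the log2 scale at 24 h (SE 1.01, adjusted p = 1) and 0.15 at 72 h (SE 1.01, adjusted p = 0.997). These standard errors exceed the differences, so this fit could show neither a difference nor its absence. It has no replicate block, so its standard errors include the spread between replicate numbers of the standard model. For Gsn the differences were 0.01 (SE 0.42) and -0.49 (SE 0.42). Between the time points, co-culture effects of the inverse model also gave 0 DEG, among the 10 genes and among 13722 tested (0% called), with 2 of the 10 at an unadjusted p under 0.05 and 0 by voom, which called 0.0948% of all genes. The effect on Gsn was lower at 72 h than at 24 h by a difference of -1.05 (SE 0.22, adjusted p = 0.132), and those on Tpm2 and Acta2 were higher by 0.60 (SE 0.23, adjusted p = 0.401) and 0.76 (SE 0.38, adjusted p = 0.495). Thus the 6 genes that were DEG at 24 h and not at 72 h were not shown to differ between the times. In the standard model 0 of the 10 genes and 0 of 13694 tested differed between the times (0% called), with 0 of the 10 at an unadjusted p under 0.05 and 0 by voom.

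Over the 24 libraries, 7 of the other genes varied closely with Acta2. Pearson's r with Acta2 on the log2 scale was 0.985 for Tpm2, 0.984 for Cnn1, 0.977 for Actg2, 0.971 for Myl9, 0.962 for Tpm1, 0.930 for Tagln and 0.911 for Myh11. Tpm2, Cnn1 and Actg2 ranked 1, 2 and 3 among 14440 genes in this measure. Des and Gsn stood apart with an r of 0.367 and -0.374. The 5 genes most like Acta2 outside the group were Cnn2, a calponin of non-muscle cells (0.974), Tmem47 (0.972), Hspb6, a small heat shock protein of muscle (0.967), Csrp1, a LIM protein that binds actin fibres (0.967), and Arhgap1, a GTPase-activating protein (0.966). The libraries share their group, model and depth and replicate 1 of the standard model weighs heavily, so r is a description over 24 points and is given without a p. Within the 12 libraries of the inverse model alone, r was 0.957 for Tpm2, 0.968 for Cnn1 and 0.805 for Myh11.

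Other genes of the contractile apparatus and the actin cytoskeleton were read from 6 lists with 62 genes in all. These lists too were written with earlier results of these data known, so their counts beside shares over all genes are a description. In inverse co-culture at 24 h, 16 of the 53 genes tested were down-regulated and 1 was up-regulated, where 1.39% and 1.08% of all genes were, with a median log2 fold change of -0.31 against -0.06 over all genes. Genes of adhesions and dense plaques, which anchor stress fibres at the membrane, gave the most, with 9 of 16 down-regulated, a median of -0.61, and among them the integrin Itga8, whose FPKM went from 6.46 to 8.33 in control PSC to between 1.29 and 1.87 (log2 fold change -1.93, SE 0.20, adjusted p = 0.00514), and the LIM protein Fhl1, from between 338 and 415 to between 176 and 197 (-1.01, SE 0.11, adjusted p = 0.00515). Of other actins and myosins, 2 of 9 were down-regulated, the skeletal actin Acta1 (-1.46, SE 0.23, adjusted p = 0.0168) and Mylk, the kinase that switches smooth muscle myosin on (-0.89, SE 0.12, adjusted p = 0.00946). Of the thin filament and calponin genes, 3 of 11 were down-regulated, with the leiomodin Lmod1 at -0.91 (SE 0.15, adjusted p = 0.0183) and Synpo2 at -0.76 (SE 0.16, adjusted p = 0.0429). Of 7 regulators of SRF and MRTF only the formin Fhod1 was lower (-0.81, SE 0.12, adjusted p = 0.0159), and no intermediate filament gene passed, with the lowest adjusted p, 0.233, for Vim (-0.24, SE 0.09). In the gelsolin family and the severing proteins, Dstn was lower (-0.76, SE 0.13, adjusted p = 0.0228) and the capping protein Capg higher (0.43, SE 0.09, adjusted p = 0.0435). With any 1 library left out, the number of these genes that were down-regulated ranged from 3 to 18, with 5, 3 and 4 without replicate 1, 2 or 3 of control PSC and 7 without replicate 2 of the co-culture, and Itga8, Fhl1 and Mylk were DEG each time. Without an intensity trend 4 were called, with the replicate number as a block 5, without the filter on low values 2, and in the single model 0, with 14 at an unadjusted p under 0.05.

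At 72 h of inverse co-culture, 6 of 54 genes of these lists were down-regulated and 3 up-regulated, where 9.57% and 3.27% of all genes were, with a median of -0.04 against -0.16 over all genes. Scaling by the median of gene ratios turned these numbers to 5 and 6, and quantile normalization to 5 and 3. With 1 library left out, between 2 (without replicate 3 of control PSC) and 8 (without replicate 3 of the co-culture) were down-regulated, and between 0 (without replicate 1 or 3 of control PSC or replicate 1 of the co-culture) and 6 (without replicate 2 of the co-culture) were up-regulated. No gene was up-regulated without the filter or in the single model, which called 5 in all. Acta1 was lower here too, at 12.7 to 24.8 in control PSC and 3.11 to 6.35 in co-cultured PSC (log2 fold change -2.04, SE 0.31, adjusted p = 0.00892), and it was a DEG with each library left out. Its effect at 72 h less that at 24 h was -0.59 (SE 0.42, adjusted p = 0.635, limma), so a difference between the times was not shown. Pdlim3, a LIM protein of muscle, was at 1.01 to 2.34 against 0.0271 to 0.145 (-1.73, SE 0.38, adjusted p = 0.0273), a low level at which the estimate depends on the pseudocount. Fhod1 (-0.78, SE 0.15, adjusted p = 0.0185) and Svil (-0.62, SE 0.11, adjusted p = 0.0156) were also lower. The genes that were higher were Myh9, Tagln2 and Capg. Myh9, the non-muscle myosin heavy chain, rose from between 674 and 902 to between 1081 and 1460 (0.76, SE 0.17, adjusted p = 0.0286), Tagln2, the non-muscle relative of Tagln, from between 74.9 and 100.4 to between 126 and 251 (1.06, SE 0.24, adjusted p = 0.0303), and Capg from between 69.3 and 85.1 to between 98.9 and 123 (0.48, SE 0.12, adjusted p = 0.0416). These 3 genes were DEG in 3, 2 and 1 of the 6 fits with a library left out.

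**Figure D5:**
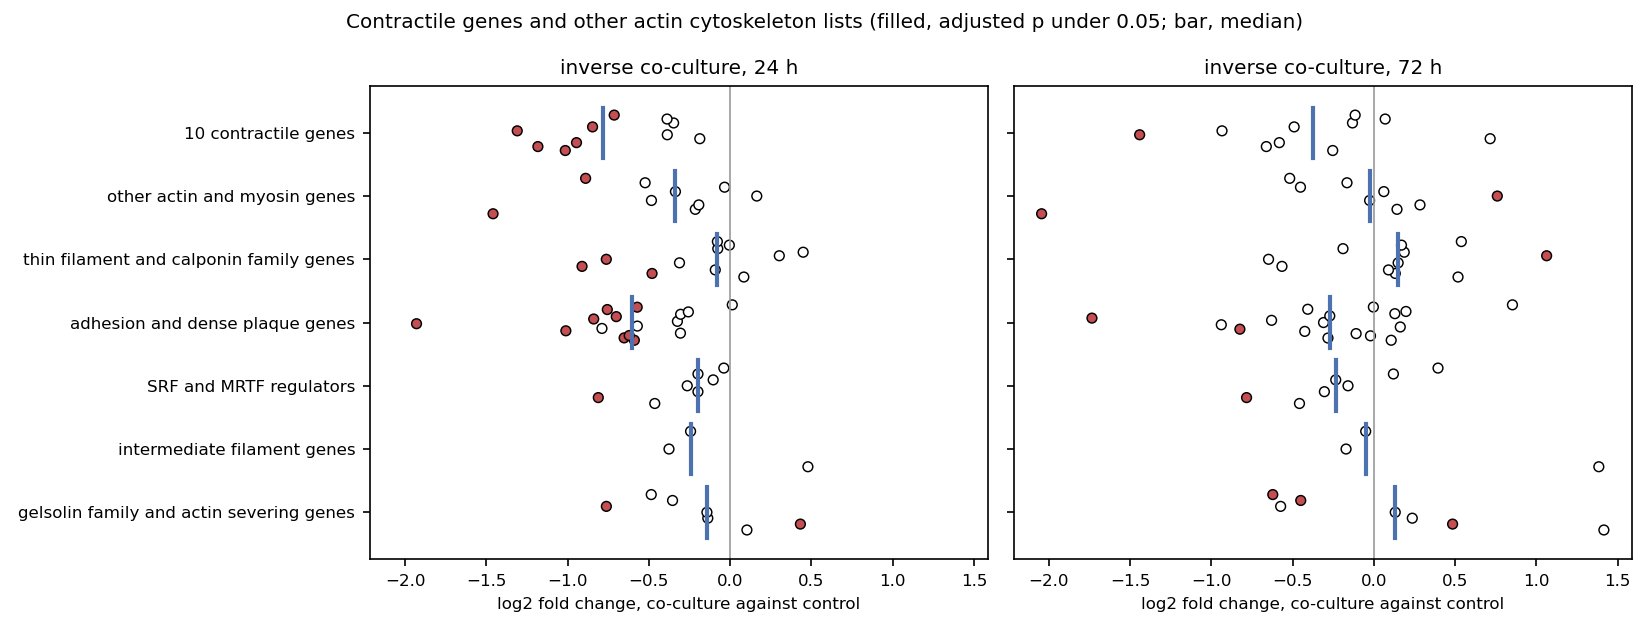
Log2 fold change in inverse co-culture against control (horizontal) at 24 h (left) and 72 h (right) of the 10 genes, Gsn included, and of each gene tested in 6 further lists (vertical, 1 row per list, 1 point per gene), filled where the adjusted p of limma was under 0.05, with a bar at the median. At 24 h most filled points are below 0, 9 of them in the adhesion list, and at 72 h 6 genes of the 6 lists are filled below and 3 above 0.

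In control PSC of the inverse model, 25 of 54 genes of these lists fell between 24 h and 72 h and 1 rose, where 9.05% and 10.2% of all genes did, with a median of -0.48 against 0.04 over all genes. The count was 10 of 17 for adhesion and dense plaque genes, 5 of 9 for other actins and myosins, 5 of 11 for thin filament and calponin genes, 1 of 7 for regulators of SRF and MRTF, 1 of 3 for intermediate filament genes and 3 of 7 for the gelsolin family and severing proteins. Tagln2 fell by 1.06 on the log2 scale (SE 0.12, adjusted p = 0.00177), Mylk by 0.85 (SE 0.19, adjusted p = 0.0164), Dstn by 0.84 (SE 0.12, adjusted p = 0.00313), Fhl1 by 0.76 (SE 0.20, adjusted p = 0.029) and Fhod1 by 0.43 (SE 0.11, adjusted p = 0.0281). The gene that rose was Svil, of the gelsolin family like Gsn (0.45, SE 0.12, adjusted p = 0.0373), a call that was kept in 1 of the 6 fits with a library left out, that without replicate 3 at 24 h, and was lost with the block, without the trend, without the filter, in the single model and with scaling by the median of gene ratios. With a library left out, between 16 and 30 of these genes fell, and in the single model over all libraries 0 did, with 15 of the 54 at an unadjusted p under 0.05. In standard co-culture 0 of 54 genes of these lists were DEG at 24 h and 0 of 53 at 72 h, with 6 and 7 at an unadjusted p under 0.05 and 0 by voom, as 0% of all genes were. In controls of the standard model over time 0 of 54 were DEG, with 0 at an unadjusted p under 0.05 and 0 by voom.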

How the data were processed

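RNA of PSC was sequenced as 24 libraries, 3 in each of 8 groups, with groups and replicate numbers taken from the sample titles. The authors had reads called with CASAVA, aligned with HISAT2 2.0.5 to GRCm38.p6 and counted per gene with featureCounts 1.5.0-p3 at default settings, which disregard the strand and leave out fragments in exons of several genes, and they deposited FPKM of 53801 genes, with no scaling between libraries beyond the total of each. Their own test used DESeq2 1.20.0 on counts, which are not used here. The release of their gene annotation is not given in the sources used here.

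Symbols and positions came from GENCODE M21, which covered 53706 genes. The fragments of each library were recovered from low FPKM, of which between 95.9% and 96.8% were whole multiples of 1 fragment within 0.05. The members and the other gene lists were chosen with earlier results of these data known. Every member is named, and of the other lists up to 3 genes with the largest change among the DEG of inverse co-culture, and 5 genes by their correlation with Acta2. A further list is not reported here.

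limma 3.58.1 (R 4.3.3) was run on log2(FPKM + 0.5) with its moderated test and an intensity trend. A gene entered where its FPKM was over 1 in 3 or more of the libraries compared. Tests were two-sided, and p-values were adjusted after Benjamini and Hochberg across all genes that entered, with 0.05 as the limit. Comparisons of 2 groups used their 6 libraries, differences between models all 24 and differences between times 12. The study describes its replicates as biological, and since no source used here says what a number marks, p-values measure the spread between these libraries. In the standard model the deviations of libraries with the same number from their group means correlated over genes for every number, at 0.550 to 0.823 at 24 h and 0.478 to 0.602 at 72 h, so the numbers were taken to pair them. Alternatives were pseudocounts of 1 and 0.1, no filter, a mean FPKM above 5, other scaling, no trend, other libraries in the fit, the replicate block and each library left out. After the data were seen, voom on the recovered fragments and the omission of replicate 1 of the standard model were added. The fits were tested on simulated data. In the standard model, a log2 change of 1 was recovered for 23.7% of changed genes in co-culture at 24 h. It was recovered for 35.1% at 72 h and for 10.5% in controls over time. In the inverse model the values were 59.4%, 51.6% and 58.6%. Promoter sequences came from the RefSeq table for GRCm38.p6. Python 3.11.15 with numpy 2.4.6, pandas 2.3.3 and matplotlib 3.10.9 was used for tables and plots.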

Additional observations from a re-analysis of the deposited data

How the results depend on the processing

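The FPKM carry no scaling beyond library totals, 3 libraries a group leave changes of the size of their spread undetected, and recovered fragments cover counting error only. Of the 10 genes, the replicate block called 1 in standard co-culture at 24 h in place of 0. For the inverse model at 24 h, 2 were called without the filter, 0 in one model over all 24 libraries, 4 without an intensity trend and 4 with the block, both of which lost Myl9 and Tpm2. In inverse controls over time one model over all 24 libraries called 0. The replicate numbers of the inverse model did not pair its libraries, with correlations between -0.17 and 0.15, and no other number of calls among the 10 genes moved by over 1.5 times with the block. With 1 library left out, between 4 and 6 genes were called at 24 h of the inverse model, 1 and 2 at 72 h, and 0 and 1 for the difference between these times, where Gsn passed without replicate 2 of the co-culture at 72 h. With scaling by the median of gene ratios, Tpm1 came to 0.030 in standard co-culture at 72 h, and in inverse co-culture at 72 h Tagln to 0.028 and Tpm2 to 0.049 (log2 fold changes). With quantile normalization Tpm1 came to 0.073 and Tagln to 0.037. Without replicate 1 of the standard model, added after the data were seen, Tagln was at 0.024 at 24 h, and at 72 h Acta2 was at 0.35, Tagln 0.32, Cnn1 0.45, Tpm1 0.42, Tpm2 0.23, Actg2 0.77 and Myh11 0.43, and the differences between models were -0.0069 for Gsn at 24 h and -0.60 for Acta2 at 72 h. In standard co-culture, log2 fold changes with 1 library left out ranged at 24 h from -1.27 to 0.19 for Acta2, -0.63 to 0.49 for Tagln, -1.07 to 0.27 for Cnn1, -0.62 to 0.21 for Tpm1, -0.91 to 0.21 for Tpm2, -1.20 to 0.58 for Actg2 and -1.15 to 0.062 for Myh11. At 72 h they ranged from -1.10 to 0.52 for Acta2, -0.48 to 0.48 for Tagln, -1.25 to 0.67 for Cnn1, -1.06 to 0.035 for Myl9, -0.46 to 0.52 for Tpm1, -0.85 to 0.42 for Tpm2, -1.34 to 1.07 for Actg2 and -1.46 to 0.59 for Myh11. The upper ends in both were reached without replicate 1 of control PSC. For the inverse model such ranges were -0.54 to 0.031 for Des at 24 h, and at 72 h -0.57 to 0.072 for Acta2, -0.41 to 0.20 for Tagln, -0.092 to 0.20 for Tpm1 and -0.32 to 0.020 for Tpm2. They were -1.58 to 0.16 for Acta2 in standard controls over time, -1.20 to 0.26 for Acta2 and -0.14 to 0.14 for Gsn in the difference between models at 24 h, and -0.78 to 0.85 for Acta2 in that at 72 h. The cause of these shifts was not tested.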
